A study of Mus musculus with 9 samples.

Results

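The insulin-like growth factor 1 (IGF1) axis was examined through 7 genes chosen by symbol out of the 54532 genes of the expression table, because IGF1 from myeloid cells is known to support T cell leukemia. They are the ligand gene Igf1, the receptor genes Igf1r and Igf2r, the binding protein genes Igfbp4 and Igfbp7, and the adaptor genes Irs1 and Irs2. RNA had been sequenced from 3 groups of sorted mouse spleen dendritic cells (DCs), with 3 samples in each group and 9 in all. N-mDCs were mature conventional DCs of normal mice without treatment. T-DCs were CD11c+ cells with low surface MHCII, and T-mDCs were mature conventional DCs, both from mice with T cell acute lymphoblastic leukemia (T-ALL). In the model used, the leukemia was started by retroviral expression of the intracellular domain of Notch1 with GFP in bone marrow cells of C57BL/6J mice, and the GFP+ leukemia cells were passed to young adult female C57BL/6J or C57B6.SJL mice without irradiation. The groups thus carried no engineered allele in the DCs themselves, and the sources used here do not give whether a sample pooled several mice or which recipient strain each sample came from. Cells of leukemic mice were taken at the late stage of the disease. Leukemia cells were not among the samples, so the cells that would receive IGF1 were not measured. Nothing in the labels says that the samples of a group came from separate mice, so p-values measure only the spread between these samples, which may be technical.

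IGF1 is a secreted growth factor that binds the IGF1 receptor, a tyrosine kinase at the cell surface. The activated receptor phosphorylates the insulin receptor substrates IRS1 and IRS2, which carry the signal to PI3K, AKT and mTOR. Binding proteins hold IGF1 outside the cell and set how much of it is free, and IGF2R, which is also the mannose 6-phosphate receptor, takes up IGF2 and carries it to the lysosome. In the spleen, macrophages are a well known source of IGF1.

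Of the 7 genes, Igf1, Igf1r, Igf2r, Igfbp4, Igfbp7 and Irs2 reached the level required for testing, 3 or more of the 9 samples at 1 FPKM or above, and Irs1 did not. FPKM is the number of reads on a gene per kilobase of the gene, scaled for library size. Igfbp7 reached that level only through the 3 N-mDC samples, so it had to be high there, and Igf1r reached it through the 3 T-DC samples and N-mDC sample 3. Igfbp4 reached it through T-DC samples 2 and 3 and T-mDC sample 1. Differences between groups were tested with limma on log2(FPKM + 1), a scale that understates the change of genes with low FPKM, with Benjamini-Hochberg adjustment over all 12746 genes tested.

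The sequences shown here are the starts of the receptor and the adaptor gene whose levels moved in opposite directions in T-DCs and which hold the same short motif. Each is the 250 bases before the start site in RefSeq (GRCm38.p6), on the strand of the gene, at chr17:12769707-12769956 for Igf2r and at chr8:11008930-11009179 for Irs2, and capitals mark the E-box CACGTG.
Igf2r: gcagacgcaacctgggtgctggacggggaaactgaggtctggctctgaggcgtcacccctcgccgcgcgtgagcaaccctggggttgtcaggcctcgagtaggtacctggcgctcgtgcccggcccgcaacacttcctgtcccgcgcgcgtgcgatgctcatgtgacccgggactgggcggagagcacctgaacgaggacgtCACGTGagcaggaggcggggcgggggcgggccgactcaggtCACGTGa
Irs2: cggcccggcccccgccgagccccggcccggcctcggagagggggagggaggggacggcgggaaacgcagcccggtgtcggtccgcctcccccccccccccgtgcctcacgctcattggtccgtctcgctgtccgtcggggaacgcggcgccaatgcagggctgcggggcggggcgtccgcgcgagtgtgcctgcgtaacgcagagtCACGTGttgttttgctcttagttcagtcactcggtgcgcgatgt
The Igf2r window holds 2 E-boxes, which begin 48 and 7 bases before the start site, and the Irs2 window holds 1, which begins 44 bases before it. All 7 genes have a window in RefSeq, and of the others only Irs1 holds an E-box, which begins 115 bases before its start. The letters CACGTG read the same on both strands and occur in 6.02% of all 32851 mouse windows of this length. The cAMP response element TGACGTCA, found in 1.55% of windows, and the FOXO site TGTTTAC, found on either strand in 3.17%, have no match in the windows of the 7 genes. A match is only a description of these letters, and no binding was measured in these samples.

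Igf1 (ENSMUSG00000020053, GRCm38 chromosome 10, 87858265 to 87937042, plus strand) did not separate T-DCs from mature DCs. It was measured at 6.90, 8.16 and 8.42 FPKM in N-mDC samples 1 to 3, at 10.4, 2.23 and 1.57 FPKM in T-DC samples 1 to 3, and at 5.15, 1.38 and 1.43 FPKM in T-mDC samples 1 to 3. The highest level of all 9 samples was thus in T-DC sample 1, while the other T-DC samples lay below every N-mDC sample, and sample 1 was also the highest of the T-mDCs. The T-mDC samples all lay below the N-mDC samples. The means were 7.83 ± 0.811 FPKM in N-mDCs, 4.74 ± 4.92 in T-DCs and 2.65 ± 2.16 in T-mDCs (SD, n = 3), and behind the lowest value stood 264 reads.

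By limma, the log2 difference of Igf1 was -0.95 between T-DCs and N-mDCs (SE 0.57, adjusted p = 0.260), 0.47 between T-DCs and T-mDCs (adjusted p = 0.606) and -1.42 between T-mDCs and N-mDCs (adjusted p = 0.255). The 95% interval of the first difference, from -2.24 to 0.34, includes 0. T-DC sample 1 decided the outcome. Without it, the difference from N-mDCs was -1.61 (adjusted p = 0.0133), the difference from T-mDCs turned to -0.19 (adjusted p = 0.740), and the difference of T-mDCs from N-mDCs had an adjusted p of 0.0483. Calls over all genes also rose without it, from 2096 to 5030, 1813 to 4475 and 282 to 1022 in the same order. The rise was thus not particular to Igf1. The last comparison does not hold that sample, so its adjusted p moved only through the shared estimate of spread and the adjustment. Over all 20 alternatives, the adjusted p of T-DCs against N-mDCs ran from 0.0133 to 0.700.

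The level of Igf1 moved with the markers of splenic red pulp macrophages. The summed FPKM of the 12 macrophage markers was 2397, 4641 and 3061 in N-mDCs, 3694, 1252 and 746 in T-DCs, and 1730, 524 and 528 in T-mDCs, in the order of the samples. From the fourth highest sample down, the 9 samples stood in the same order by Igf1 as by this sum, and the same 3 samples led both. All 12 markers passed the filter and none is at 0 in every sample, and by limma 0 of 12 were called in either T-DC comparison at the adjusted threshold, with 1 of 12 at an unadjusted p under 0.05 in each. Between T-mDCs and N-mDCs, where the Igf1 samples did not overlap, 12 of 12 markers were lower in mean in T-mDCs (median log2 difference -1.88), and limma called 0 of 12, with 11 of 12 at an unadjusted p under 0.05. Macrophage markers were not alone in this. The summed FPKM of 10 monocyte markers was 1323, 2343 and 2705 in N-mDCs, 2564, 1621 and 1117 in T-DCs, and 1019, 482 and 482 in T-mDCs. The same 3 samples led this sum as led Igf1. Of the 9 monocyte markers tested, 9 were lower in T-mDCs than in N-mDCs, with 7 at an unadjusted p under 0.05 and 0 called by limma. In bulk samples such as these, fewer cells of a type and less RNA per cell cannot be told apart. The part of macrophages or monocytes in the Igf1 level was not tested.

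The 5 genes nearest to Igf1 across the 9 samples were Galnt3, P2ry13, Cmbl, Stab2 and Scamp5. Nearness was the mean absolute difference of log2(FPKM + 1), each gene centred on its own mean, and it was 0.069 for Galnt3, 0.119 for P2ry13, 0.136 for Cmbl, 0.143 for Stab2 and 0.148 for Scamp5, against a median of 0.877 over the genes tested. Stab2 encodes a scavenger receptor that clears hyaluronan, and P2ry13 encodes a receptor for ADP. These genes were also high in T-DC sample 1 and low in T-DC samples 2 and 3. The likeness rests on 9 samples that share libraries and is given as a description.

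**Figure D1:**
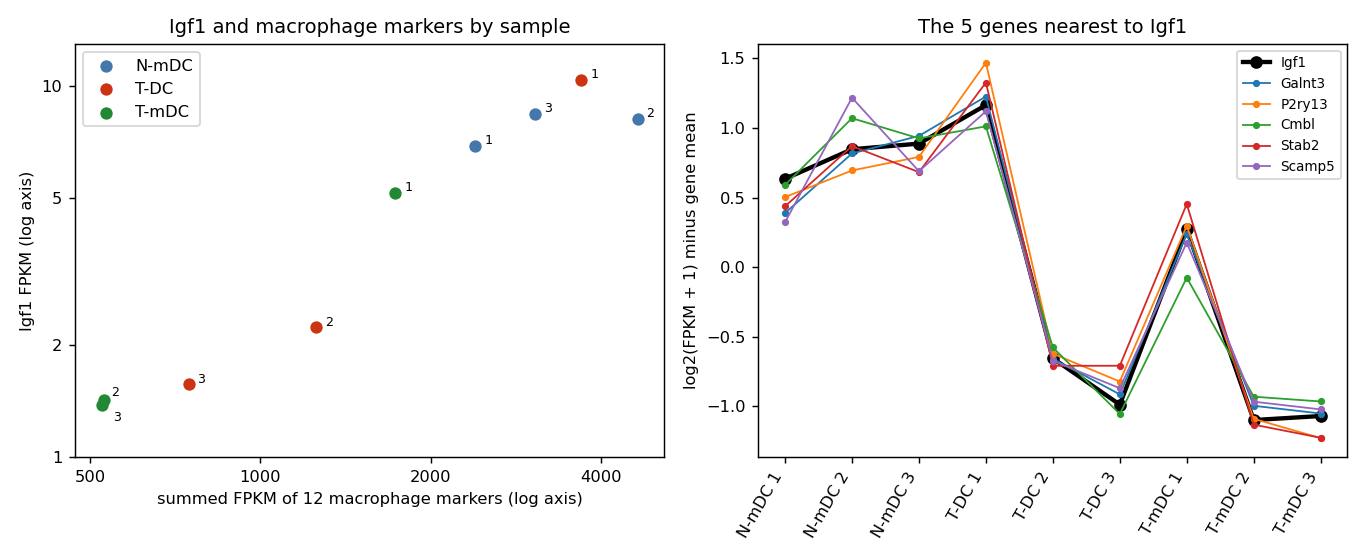
Left: Igf1 FPKM against the summed FPKM of 12 red pulp macrophage markers, both on log axes, 1 numbered point per sample, coloured by group. Right: log2(FPKM + 1) minus the gene mean for Igf1 and the 5 genes nearest to it, with lines joining the values of 1 gene. T-DC sample 1 (10.4 FPKM) sits with the N-mDC samples, and T-DC samples 2 and 3 (2.23 and 1.57 FPKM) sit near T-mDC samples 2 and 3.

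The level of Igf1r, which encodes the signalling receptor, was higher in T-DCs than in either group of mature DCs. Igf1r (ENSMUSG00000005533, chromosome 7, 67952827 to 68233668, plus strand) was at 0.636, 0.436 and 1.02 FPKM in N-mDCs, at 2.0, 1.79 and 2.0 FPKM in T-DCs and at 0.681, 0.327 and 0.272 FPKM in T-mDCs. All T-DC samples lay above all other samples, and they agreed closely among themselves, unlike for Igf1. The means were 1.93 ± 0.118 FPKM in T-DCs, 0.698 ± 0.297 in N-mDCs and 0.427 ± 0.222 in T-mDCs (SD, n = 3), which is 2.77 times the mean of N-mDCs and 4.53 times that of T-mDCs. The level was low in every group, with 467 to 601 reads in T-DCs and 84 to 311 in the other samples. The 3 T-DC samples alone were enough for Igf1r to pass the filter, so a difference was largely built into its being tested.

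By limma, the log2 difference of Igf1r was 0.80 against N-mDCs (SE 0.19, adjusted p = 0.0250) and 1.05 against T-mDCs (SE 0.19, adjusted p = 0.00974). Between T-mDCs and N-mDCs it was -0.25 (adjusted p = 0.553, 95% interval -0.68 to 0.19). The call against N-mDCs was close to the threshold and held in 9 of 19 alternatives, with adjusted p from 0.0223 to 0.133, and it was lost without N-mDC sample 1 (0.0761) or 2 (0.0617) and without T-DC sample 2 (0.0702) or 3 (0.0742). The call against T-mDCs held in 15 of 19, with adjusted p from 0.00821 to 0.0710, and it was lost without T-mDC sample 2 (0.0566) or 3 (0.0587).

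Igf2r, which encodes the receptor that clears IGF2, was also higher in T-DCs than in N-mDCs. Igf2r (ENSMUSG00000023830, chromosome 17, 12682406 to 12769664, minus strand) was at 2.53, 1.64 and 2.66 FPKM in N-mDCs, at 7.14, 5.86 and 5.44 FPKM in T-DCs and at 5.31, 2.79 and 2.42 FPKM in T-mDCs. The T-DC samples lay above all others, but T-mDC sample 1 came within a small distance of the lowest of them. The means were 6.15 ± 0.888 FPKM in T-DCs, 2.28 ± 0.555 in N-mDCs and 3.51 ± 1.57 in T-mDCs (SD, n = 3). The log2 difference by limma was 1.13 against N-mDCs (SE 0.26, adjusted p = 0.0214), where the ratio of means was 2.70, and 0.71 against T-mDCs (SE 0.26, adjusted p = 0.102).

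The call of Igf2r against N-mDCs held in 13 of 20 alternatives, with adjusted p from 0.00979 to 0.0892. It was lost without N-mDC sample 1 (0.0569), 2 (0.0612) or 3 (0.0506) and without T-DC sample 2 (0.0629). The difference from T-mDCs passed in 1 of 20 alternatives, without T-mDC sample 1, where it was 0.98 (adjusted p = 0.0246), and the adjusted p ran from 0.0246 to 0.362. Airn, a noncoding gene on the opposite strand that overlaps Igf2r, had at most 13 reads in any sample. The genes nearest to Igf1r were Asph (0.055), Fry (0.095) and Ocrl (0.10), with a median of 0.504 over the genes tested, and those nearest to Igf2r included Nsf (0.131) and D230025D16Rik (0.133), with a median of 0.558, all as mean absolute differences of centred log2(FPKM + 1).

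**Figure D2:**
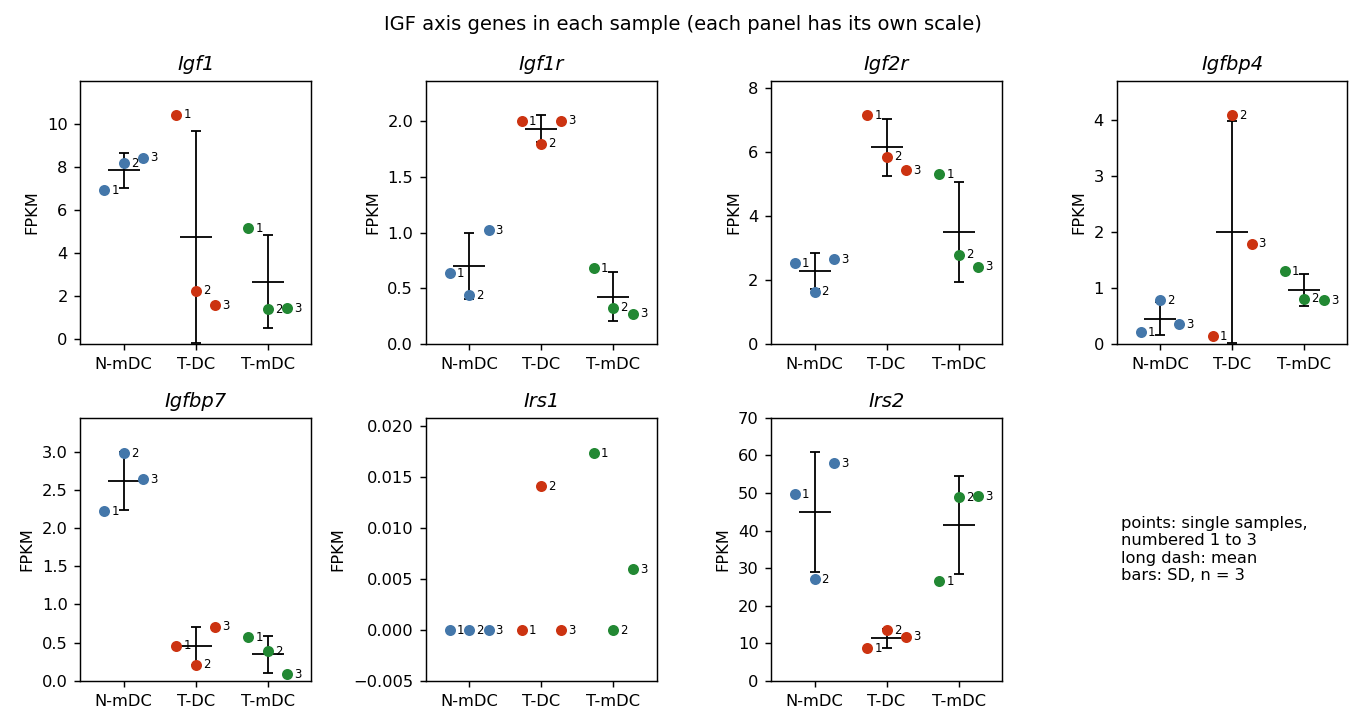
FPKM of the 7 IGF axis genes in each of the 9 samples, with a panel and a scale of its own for each gene. Points are single samples with their number, long dashes are means and bars are SD (n = 3), which are left out for Irs1, the gene with 0 to 3 reads. T-DCs sit above the other samples for Igf1r and Igf2r and below them for Irs2, N-mDCs sit apart for Igfbp7, and the T-DC samples spread widely for Igf1 and Igfbp4.

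The 2 binding protein genes differed in their pattern. Igfbp4, whose product is secreted and holds back IGF1, varied more within T-DCs than between the groups. Igfbp4 (ENSMUSG00000017493, chromosome 11, 99041244 to 99054392, plus strand) was at 0.217, 0.788 and 0.362 FPKM in N-mDCs, at 0.139, 4.08 and 1.79 FPKM in T-DCs and at 1.3, 0.808 and 0.788 FPKM in T-mDCs. T-DCs held both the lowest sample, with 11 reads, and the highest, with 279 reads. T-DC sample 1, which had the most Igf1, had the least Igfbp4.

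By limma, Igfbp4 differed by 0.81 on the log2 scale between T-DCs and N-mDCs (SE 0.47, adjusted p = 0.244), by 0.37 between T-DCs and T-mDCs (adjusted p = 0.622) and by 0.44 between T-mDCs and N-mDCs (adjusted p = 0.679), although all T-mDC samples lay at or above the highest N-mDC sample. Without T-DC sample 1, T-DCs differed by 1.39 from N-mDCs (adjusted p = 0.00740) and by 0.95 from T-mDCs (adjusted p = 0.0386), and over all 19 alternatives the adjusted p ran from 0.00740 to 0.638 and from 0.0386 to 0.966. The summed FPKM of 9 neutrophil markers was 8.94, 4382 and 1535 in T-DC samples 1 to 3, the same order as Igfbp4, and that of 10 erythroid markers was 609, 58133 and 42719. In sample order, the neutrophil sum was 56.7, 413 and 664 in N-mDCs and 3.78, 15.8 and 14.2 in T-mDCs, unlike the order of Igfbp4. The erythroid sum was 99.2, 5354 and 482 in N-mDCs and 181, 22.8 and 15.4 in T-mDCs, the order of Igfbp4 within each group. Between groups neither sum followed Igfbp4, as T-mDCs had a higher mean of Igfbp4 than N-mDCs but lower sums. By limma 0 of 9 neutrophil markers were called against N-mDCs or T-mDCs, with 0 and 8 at an unadjusted p under 0.05. The part of these cells in the Igfbp4 level was not tested. The genes nearest to Igfbp4 were Gm11457 (0.121), Cenpt (0.174) and the entry ENSMUSG00000114515 listed as Aldoa (0.179), with a median of 0.602.

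Igfbp7 was lower in both DC groups of leukemic mice than in N-mDCs. Its product binds IGF1 weakly and has been described as binding the IGF1 receptor. Igfbp7 (ENSMUSG00000036256, chromosome 5, 77349240 to 77408041, minus strand) was at 2.22, 2.98 and 2.64 FPKM in N-mDCs, at 0.462, 0.213 and 0.708 FPKM in T-DCs and at 0.570, 0.385 and 0.0899 FPKM in T-mDCs. The N-mDC samples lay above all others, and the T-DC and T-mDC samples overlapped. The means were 2.61 ± 0.380, 0.461 ± 0.247 and 0.348 ± 0.242 FPKM (SD, n = 3), so that N-mDCs were 5.67 times T-DCs and 7.51 times T-mDCs.

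These values rested on few reads, with 4 to 13 per T-DC sample, 2 to 13 per T-mDC sample and 42 to 58 per N-mDC sample. The exact binomial 95% interval was 1.60 to 3.0 FPKM in the lowest N-mDC sample and 0.377 to 1.21 FPKM in the highest T-DC sample, counting error only. Because Igfbp7 passed the filter only through N-mDCs, a difference was built into its being tested. By limma, the log2 difference was -1.32 for T-DCs (SE 0.21, adjusted p = 0.00519) and -1.43 for T-mDCs (SE 0.21, adjusted p = 0.0158), both against N-mDCs, and 0.12 between T-DCs and T-mDCs (adjusted p = 0.730, 95% interval -0.35 to 0.59).

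The call of Igfbp7 in T-DCs held in 19 of 19 alternatives (adjusted p from 0.00332 to 0.0452), and the one in T-mDCs in 10 of 19 (from 0.0103 to 0.0829), being lost when N-mDC sample 2 (0.0745), N-mDC sample 3 (0.0750), T-mDC sample 2 (0.0829) or T-mDC sample 3 (0.0785) was left out. All of these alternatives but the one with no filter kept the filter that Igfbp7 passed only through N-mDCs. The counts of alternatives are thus not separate support for the difference. The markers of NK cells moved the same way as Igfbp7. Their summed FPKM over 7 genes ran from 41.9 to 129 in N-mDCs, but only from 1.2 to 17.6 in T-DCs and from 1.55 to 2.98 in T-mDCs, and 7 of 7 were called lower in T-DCs and 7 of 7 in T-mDCs than in N-mDCs. NK cells were not alone in this. The lowest N-mDC sums of B cell, plasmacytoid DC and T-lineage markers were 209, 346 and 119 FPKM. The highest sums outside N-mDCs, all in T-mDCs, were 181, 216 and 113 FPKM. Against N-mDCs, 4 of 5, 3 of 7 and 3 of 9 of these markers were called lower in T-DCs. For T-mDCs the calls were 0 of 5, 2 of 7 and 1 of 9. In N-mDCs the T-lineage sum was mostly Cd8a and Cd4, with means of 40.8 and 45.7 FPKM, while Cd3e was at 0.985. Cd8a had a higher mean in T-mDCs, 76.3 FPKM. The T-lineage genes called were Cd8a, Cd8b1 and Cd4 in T-DCs and Cd8b1 alone in T-mDCs. Cd3e, Cd3d, Cd3g, Lck and Lat were called in neither, so the T-lineage counts are not read as T cells. The part of any of these cell types in the Igfbp7 level was not tested. Polr2b, which encodes a subunit of RNA polymerase II, overlaps the last 85 bases of Igfbp7 on the opposite strand and was at 10.8 to 28.3 FPKM, highest in T-DCs, and whether counting used strand is not given in the sources used here. The genes nearest to Igfbp7 were Gm5781 (0.153), Zfp667 (0.162) and Gm14964 (0.173), with a median of 0.701.

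Irs2 was by far the more abundant adaptor, and its level was lower in T-DCs than in either group of mature DCs. Irs2 (ENSMUSG00000038894, chromosome 8, 10984681 to 11008458, minus strand) was at 49.7, 27.1 and 57.9 FPKM in N-mDCs, at 8.70, 13.5 and 11.8 FPKM in T-DCs and at 26.6, 48.9 and 49.2 FPKM in T-mDCs. Every T-DC sample lay below every mature DC sample, and the N-mDC and T-mDC samples overlapped. The means were 11.3 ± 2.44 FPKM in T-DCs, 44.9 ± 16 in N-mDCs and 41.6 ± 13 in T-mDCs (SD, n = 3), so that N-mDCs were 3.96 times and T-mDCs 3.67 times T-DCs.

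By limma, the log2 difference of Irs2 was -1.85 against N-mDCs (SE 0.34, adjusted p = 0.00987) and -1.75 against T-mDCs (SE 0.34, adjusted p = 0.0134), and it was -0.09 between T-mDCs and N-mDCs (adjusted p = 0.918, 95% interval -0.88 to 0.69). The first call held in 19 of 20 alternatives, with adjusted p from 0.00741 to 0.0579. The second held in 16 of 20, with adjusted p from 0.00694 to 0.0696, and was lost without T-mDC sample 2 (0.0696) or 3 (0.0690) and when their mean stood as 1 sample (0.0692). Irs2 was thus lower where Igf1r was higher, in the same T-DC samples, which both comparisons share. The genes nearest to Irs2 were Mx1 (0.167), an antiviral gene induced by interferon, Ptpn3 (0.179) and Gpc1 (0.182), with a median of 0.893.

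Irs1 (ENSMUSG00000055980, chromosome 1, 82233101 to 82291416, minus strand) was at or near 0 throughout. It had 0 reads in all N-mDC samples, 0, 2 and 0 in T-DCs and 3, 0 and 1 in T-mDCs, which is at most 0.0174 FPKM. A count of 0 allows up to 3 reads, or 0.0170 to 0.0216 FPKM in these samples, so Irs1 was not tested and no fold is given.

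**Figure D3:**
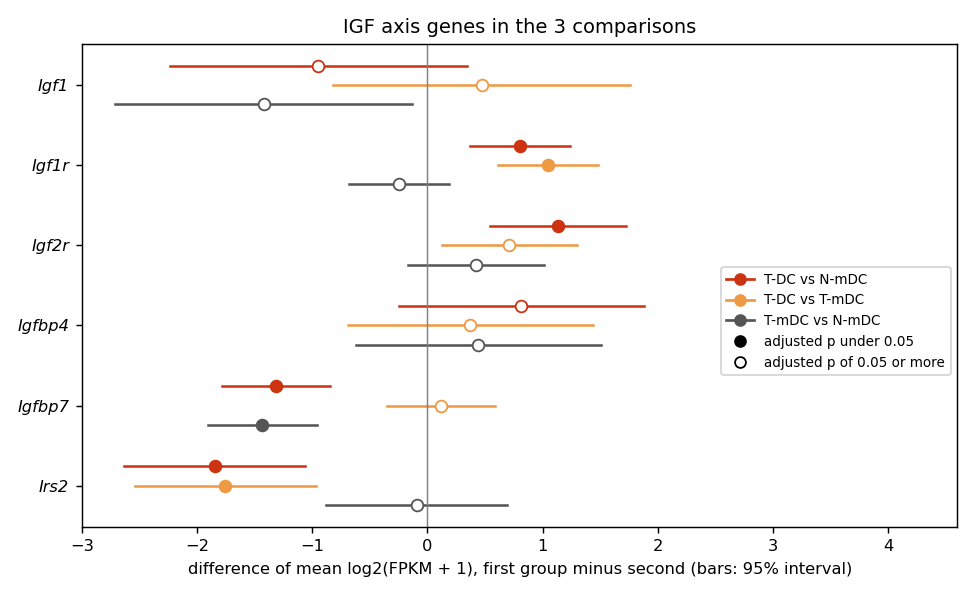
Difference of mean log2(FPKM + 1) between groups for the 6 IGF axis genes tested, with 95% intervals from limma, in the 3 comparisons, and filled points for an adjusted p under 0.05. Igf1r and Igf2r lie to the right and Irs2 and Igfbp7 to the left for T-DCs against N-mDCs, while the intervals of Igf1 and Igfbp4 for T-DCs include 0.

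Among the 6 genes tested, 4 were called between T-DCs and N-mDCs, 2 higher and 2 lower, with a median log2 difference of -0.07. Over all genes tested, 16.4% were called in that comparison, 6.10% higher and 10.3% lower, with a median of 0.05. Between T-DCs and T-mDCs 2 of 6 were called, 1 higher and 1 lower, against 14.2% of all genes (5.44% higher and 8.79% lower), and between T-mDCs and N-mDCs 1 of 6 was called against 2.21%. In the same order the groups did not overlap for 4, 3 and 3 of the 6 genes, against 32.4%, 34.9% and 35.0% of all genes. Because 3 of the 6 genes passed the filter largely through the group in which they were high, these counts describe the genes and are not read as a property of the axis.

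The other ligands, receptors and binding proteins of the family were low or undetected. Igf2 had 1 read in the 9 samples together. Insr, the insulin receptor gene, was at 1.99 to 4.35 FPKM in T-DCs, with N-mDCs at 1.32 to 2.85 and T-mDCs at 1.77 to 2.05, and by limma it differed by 0.21 (adjusted p = 0.617) and 0.31 (adjusted p = 0.479) on the log2 scale between T-DCs and the 2 other groups. Insrr, a receptor gene of the same family, was at most 0.0381 FPKM. Igfbp1 had no read in any sample, Igfbp2 reached 0.0357 FPKM, Igfbp5 0.0176, Igfbp3 0.158 and Igfals, which encodes a partner of the binding proteins in blood, 0.103 FPKM. Igfbp6 was at 0.058 to 0.178 FPKM in T-DCs, with N-mDCs at 0.223 to 0.345 and T-mDCs at 0.186 to 0.572. These values rested on 2, 1 and 3 reads in T-DCs, 6, 4 and 5 in N-mDCs and 12, 4 and 4 in T-mDCs. All T-DC samples of Igfbp6 lay below the others, but by as little as 3 reads against 4, and the level was too low for testing.

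Downstream of the receptors, 64 further genes of the IGF and insulin pathway were listed and 44 passed the filter. Between T-DCs and N-mDCs 12 of 44 were called by limma, 9 higher and 3 lower, with a median log2 difference of 0.30. Between T-DCs and T-mDCs 11 of 44 were called, 7 higher and 4 lower, with a median of 0.13. The medians over all genes tested were 0.05 and 0.07, and the percentages called over all genes are those given above. Both comparisons share the T-DC samples. Between T-mDCs and N-mDCs limma called 0 of 44, with 4 at an unadjusted p under 0.05. The counts depended on single samples. Leaving out 1 sample gave 0 (without N-mDC sample 1) to 17 (without T-DC sample 1) genes in the first comparison and 1 (without T-mDC sample 2 or 3) to 16 (without T-DC sample 1) in the second.

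Of the FOXO transcription factors and GSK3, which AKT restrains, 4 of 5 were called in each T-DC comparison. Over all genes tested, 16.4% were called against N-mDCs and 14.2% against T-mDCs. With so few genes, chosen by hand, the count is not read as a property of this part of the pathway. Foxo3 was at 9.26, 8.88 and 11.6 FPKM in N-mDCs, 15.8, 61.2 and 41.5 in T-DCs and 9.61, 8.54 and 8.86 in T-mDCs, a log2 difference of 1.71 (adjusted p = 0.0262) and 1.83 (adjusted p = 0.0222). The T-DC samples lay above all others, with sample 1 the lowest of them. Foxo4 differed by 0.96 (adjusted p = 0.0391) and 1.36 (adjusted p = 0.0123), and Gsk3a by 0.68 (adjusted p = 0.0379) and 0.69 (adjusted p = 0.0387). Foxo1 went the other way, at 7.34, 5.72 and 8.36 FPKM in N-mDCs, 3.97, 3.16 and 1.35 in T-DCs and 5.78, 6.66 and 6.75 in T-mDCs, a log2 difference of -1.14 (adjusted p = 0.0266) and -1.02 (adjusted p = 0.0429). Many of these calls were close to the threshold. Against N-mDCs, Foxo3 held in 12 of 20 alternatives, Foxo1 in 12, Foxo4 in 7 and Gsk3a in 5, and against T-mDCs Foxo3 held in 12, Foxo1 in 7, Foxo4 in 16 and Gsk3a in 6. With 1 sample left out, Foxo4 and Gsk3a against N-mDCs and Foxo1 against T-mDCs each held in 1 of 9 fits. Within T-DCs erythroid markers (summed FPKM 609, 58133 and 42719) had the order of Foxo3 and also of Foxo4 (12.3, 27.4 and 22.4 FPKM). Of these markers 3 of 10 were called higher against N-mDCs and 10 of 10 against T-mDCs. The order did not hold in N-mDCs, where sample 2 had the highest erythroid sum, 5354, but the lowest Foxo3, 8.88 FPKM. In T-mDCs sample 1 was the highest by both. The part of erythroid cells in the Foxo3 and Foxo4 levels was not tested.

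Of the mTOR genes 1 of 8 was called in each T-DC comparison. This was Eif4ebp1, whose product restrains cap-dependent translation until mTOR phosphorylates it, at 9.38, 18 and 11.7 FPKM in N-mDCs, 42.5, 29.9 and 47.8 in T-DCs and 16.3, 9.17 and 9.21 in T-mDCs. All T-DC samples lay above all mature DC samples. The log2 difference was 1.57 (adjusted p = 0.0124) and 1.73 (adjusted p = 0.00928), and the calls held in 18 and 16 of 20 alternatives.

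Among 4 adaptors, Gab1, a docking protein for PI3K and SHP2, was called higher in both comparisons, by 1.23 (adjusted p = 0.0350) and 1.65 (adjusted p = 0.0129), with T-DCs at 1.43 to 5.18 FPKM and all other samples at 0.118 to 0.856, and it passed the filter through the T-DC samples alone. Shc1, an adaptor of receptor tyrosine kinases, was called higher against N-mDCs by 0.64 (adjusted p = 0.0436). The calls against N-mDCs held in 5 of 19 alternatives for Gab1 and 5 of 20 for Shc1, and both were lost with voom (adjusted p = 0.0534 and 0.0694), while the call of Gab1 against T-mDCs held in 15 of 19.

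Of the PI3K and AKT genes 2 of 10 were called in each comparison, 1 higher and 1 lower against N-mDCs and both lower against T-mDCs. Pik3cb, a catalytic subunit, was at 10.4 to 12.4 FPKM in T-DCs, 17.3 to 32.6 in N-mDCs and 20.6 to 31.0 in T-mDCs, and fell by 1.06 (adjusted p = 0.0273) and 1.16 (adjusted p = 0.0218) on the log2 scale. The regulatory subunit gene Pik3r2 rose by 0.71 against N-mDCs (adjusted p = 0.0294), and Pik3r3, also regulatory, fell by 1.16 against T-mDCs (adjusted p = 0.00777), a call that held in 18 of 19 alternatives. Pik3r3 was at 0.195 to 0.348 FPKM in T-DCs, against 1.36 to 2.30 in T-mDCs, and it passed the filter through the T-mDC samples alone. Jak2, the kinase of the growth hormone receptor and of many cytokine receptors, fell by 1.24 against N-mDCs (adjusted p = 0.0487) and by 1.95 against T-mDCs (adjusted p = 0.0105). Against N-mDCs the calls of Jak2, Pik3r2 and Pik3cb held in 7, 8 and 11 of 20 alternatives, and against T-mDCs those of Jak2 and Pik3cb held in 16 and 13 of 20. None of 3 negative regulators was called in either comparison by limma, with 1 at an unadjusted p under 0.05 against N-mDCs and 0 against T-mDCs.

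**Figure D4:**
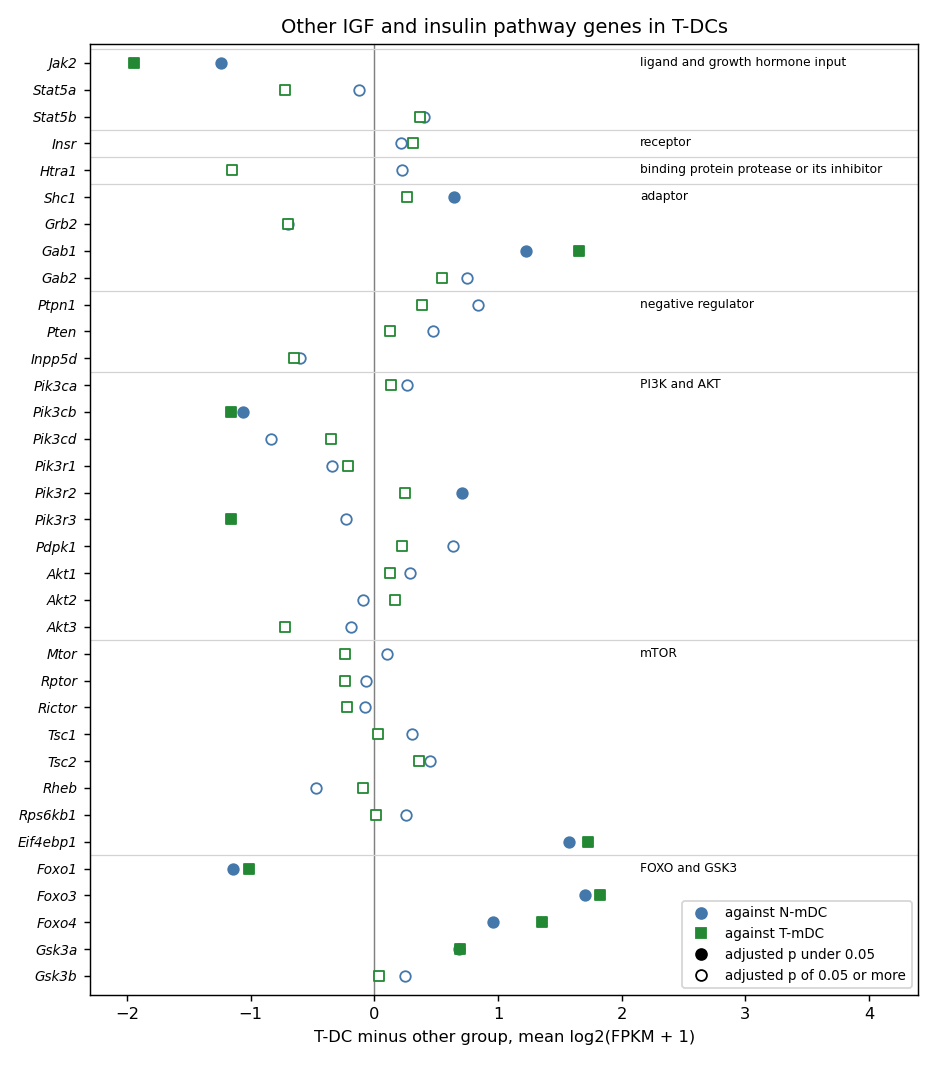
Difference of mean log2(FPKM + 1) of T-DCs from N-mDCs (circles) and from T-mDCs (squares) for other IGF and insulin pathway genes that passed the filter, grouped by role from the receptor to FOXO and GSK3, with filled symbols for an adjusted p under 0.05. Foxo3 and Eif4ebp1 lie to the right and Jak2 and Foxo1 to the left in both comparisons.

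Reads on genes ranged from 15360815 to 18440913 per sample, so depth differed little between the groups. T-DC sample 1 stood apart from T-DC samples 2 and 3, with a chi-square per gene of 28.4 and 36.1 against 11.3 between those, and hemoglobin took 0.0422%, 3.82% and 3.0% of the reads in T-DC samples 1 to 3. T-mDC samples 2 and 3 were unusually close (1.85, where 1 is counting noise, against 8.11 to 36.1 for other pairs of a group) and were kept as separate samples. Conventional DC markers were present in every group, but 7 of 10 were called lower in T-DCs in each comparison, and their summed FPKM was 195 to 727 in T-DCs, with N-mDCs at 697 to 819 and T-mDCs at 775 to 879. Of the other cell types, T-DCs had called markers in the lists of T-lineage cells (3 of 9 lower than N-mDCs, 1 of 9 lower than T-mDCs), B cells (4 of 5 and 2 of 5 lower), plasmacytoid DCs (3 of 7 and 1 of 7 lower), monocytes (2 of 9 lower, 3 of 9 higher) and endothelial and stromal cells (2 of 3 in opposite directions, 1 of 3 lower), and no megakaryocyte marker was called by limma in either, also at an unadjusted p under 0.05. Over all genes tested, 10.3% were called lower and 6.1% higher in T-DCs than in N-mDCs. Against T-mDCs these shares were 8.79% and 5.44%. The called T-lineage genes were Cd8a, Cd8b1 and Cd4 against N-mDCs and Cd8a alone against T-mDCs. Cd3e, Cd3d, Cd3g, Lck and Lat were called in neither, and against T-mDCs 7 of 9 T-lineage markers had a log2 difference above 0.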

How the data were processed

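RNA of 9 sorted spleen DC samples was sequenced, and the authors deposited FPKM values with gene lengths for 54532 genes; the genome build is mm10 per the submitters' processing notes, and the aligner, counter and annotation are not given in the sources used here. All 7 genes have the same coordinates in GENCODE M21. The deposited FPKM times gene length gave whole reads (largest deviation 4.56e-05 of a read), which served for read counts, exact binomial intervals and a limma voom alternative. Groups came from the sample titles. The 12746 genes at 1 FPKM or above in 3 or more samples were fitted on log2(FPKM + 1) with limma 3.58.1 in R 4.3.3, all 9 samples in 1 fit with 3 contrasts, eBayes with a trend and adjustment by Benjamini-Hochberg, and were called at an adjusted p under 0.05. An exact permutation test of 3 against 3 samples cannot go below p = 0.1. The fit was tested on simulated data. Alternatives were a pseudocount of 0.1, no filter, an FPKM of at least 5, TPM, median-of-ratios scaling, only the 2 groups compared, no trend, a replicate block, voom, the mean of T-mDC samples 2 and 3, leaving out each sample, and T-DC sample 1 alone. The 7 genes, the pathway list and the marker lists were chosen with earlier results of these data known. Genes named were the 7, the pathway genes called in a T-DC comparison (some are not reported here by name, though the counts hold them), the other ligands, receptors and binding proteins, the 5 genes nearest to Igf1 and 3 nearest to each other gene tested, genes overlapping the 7 with reads that bear on them, and markers that moved with them. The reads, single-cell data and other assays of the study were not used here.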

Additional observations from a re-analysis of the deposited data

How the results depend on the processing

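All counts of calls depended on the setting. For the IGF axis genes, the 4 calls of T-DCs against N-mDCs became 2 with no filter, with an FPKM of at least 5 and with TPM, 1 with T-DC sample 1 alone, and 2 to 6 with 1 sample left out. The 2 calls against T-mDCs became 1 with an FPKM of at least 5, 0 with T-mDC samples 2 and 3 averaged or with T-DC sample 1 alone, and 0 to 3 with 1 sample left out. The 1 call of T-mDCs against N-mDCs became 0 with a pseudocount of 0.1, an FPKM of at least 5, TPM, voom, the replicate block or the mean of T-mDC samples 2 and 3, and 0 to 2 with 1 sample left out. At an FPKM of at least 5, Igf1r, Igfbp4 and Igfbp7 were not tested. For the pathway genes, the 12 calls against N-mDCs became 4 with no filter, 4 with TPM, 1 with only the 2 groups compared, 5 with T-mDC samples 2 and 3 averaged, 3 with T-DC sample 1 alone, and 0 to 17 with 1 sample left out. The 11 against T-mDCs became 7 with no filter, 7 with only the 2 groups compared, 1 with the mean, 1 with T-DC sample 1 alone, and 1 to 16 with 1 sample left out. The 0 of T-mDCs against N-mDCs became 1 with no filter, with only the 2 groups compared and with T-DC sample 1 alone, and 0 to 1 with 1 sample left out. The causes were not tested. Fewer samples did not always weaken the calls, since the pathway counts of 17 and 16 came from leaving out T-DC sample 1. With T-DC sample 1 alone, it is assumed to vary like the other groups.

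Over all genes, the 2096, 1813 and 282 calls of T-DCs against N-mDCs, of T-DCs against T-mDCs and of T-mDCs against N-mDCs became 1070, 1036 and 850 with only the 2 groups compared, 1394, 540 and 23 with T-mDC samples 2 and 3 averaged, 5030, 4475 and 1022 without T-DC sample 1, and 746, 741 and 849 with that sample alone.

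Directions turned only where the main difference had not passed the test. Igf1 against N-mDCs was 0.37 and Igfbp4 was -0.33 with T-DC sample 1 alone. Igfbp4 against T-mDCs was -0.090 with voom, -0.78 with T-DC sample 1 alone, and -0.13 to 0.95 with 1 sample left out. With 1 sample left out, Igf1 against T-mDCs ran from -0.19 to 0.92, Igfbp7 against T-mDCs from -0.027 to 0.25 and Irs2 of T-mDCs against N-mDCs from -0.41 to 0.19, and the last was 0.12 with TPM and 0.0016 with voom. TPM moved the median of all genes to -0.23 for T-DCs against T-mDCs and to 0.23 for T-mDCs against N-mDCs, and voom moved the latter to 0.13.

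With the replicate number as a block, the pathway counts were 3, 6 and 0 and the IGF axis counts 3, 2 and 0, and Igf1r against N-mDCs had an adjusted p of 0.0535. Deviations from the group means correlated between same-numbered samples with r from -0.475 to 0.269. With 3 samples in a group these deviations depend on each other, so they cannot decide whether the numbers pair the samples. Depth limits Igfbp7 and Irs1, which rest on few reads.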
